A study of Rattus norvegicus with 24 samples.

Results

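miR-140 is a microRNA (miRNA) of the cartilage, followed here in blood cells of arthritic and healthy rats. It was taken as the array row with that exact name, rno-miR-140, which is 1 of the 677 miRNAs on the array. A miRNA is a short RNA that pairs through its seed, bases 2 to 8, with messenger RNAs and lowers their output. miR-140 is best known from chondrocytes, the cells of cartilage, where the transcription factor Sox9 drives it together with its host gene Wwp2, and where its targets include Adamts5, an enzyme that degrades the cartilage matrix. Collagen-induced arthritis (CIA), the model used in this study, is a joint disease raised by immunising rats with type II collagen, the main collagen of cartilage, but the cells measured here came from blood and not from joints.

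The cells were peripheral blood mononuclear cells (PBMCs), separated on a Ficoll gradient from female Wistar rats, and each of the 12 groups had 2 arrays. Healthy untreated animals (NOCIA, labelled NORA) were sampled before therapy (T0), at 1 hour and at 34 days. Untreated CIA animals (labelled RA) were sampled before therapy. Further CIA animals were sampled at 1 hour and at 34 days, with mechanical stimulation by a needle under the skin (MS, labelled AP), methotrexate (MTX), saline as placebo (PLA), or no therapy but isoflurane for anaesthesia at the blood draw, where the other 3 of these arms had ether (ANE). All 9 CIA groups therefore share the immunisation, which the 3 NOCIA groups lack, and after T0 the CIA animals without an active therapy were those of PLA and ANE. Ages were not given, and animals were sacrificed at the blood draw, so that no animal was followed over time. Whether an array holds 1 animal or a pool was not stated, so that p-values measure the spread between these arrays. For NOCIA at 34 days 1 label line says 1 hour, and the title and another line say 34 days, which was used.

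The mature miR-140 and the other arm of its hairpin, which the array calls miR-140*, are shown with the seed in capitals because both were measured and their seeds differ. In present naming they are the 5p and the 3p arm. All 7 arms printed here were matched by name in the RefSeq table of build GRCr8.
miR-140 (5p): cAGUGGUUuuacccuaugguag
miR-140* (3p): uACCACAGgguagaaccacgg
No other mature miRNA among the 693 names of that table carries either seed. The arms lie on the plus strand at chr19:52375314-52375335 and chr19:52375353-52375373, with 17 bases between them. The 99-base hairpin lies within the bounds of Wwp2, a ubiquitin ligase gene, at chr19:52256563-52380967, and starts 118730 bases after the gene's start. The nearest other miRNA hairpin of the chromosome, Mir3084a, is 3343244 bases away.

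miR-140 was detected in PBMCs on 24 of 24 arrays, in healthy as in arthritic animals. The array reads it with 2 probes over 20 spots, of which 17 to 20 were unflagged on each array, with none saturated and none failing the test of being well above background. The total signal was 13.6 to 13.9 times its own error estimate. This ratio hardly varied while the signal ran from 356 to 1369, so that it does not rank the arrays by precision. The 2 probes gave a constant ratio, with a log2 value between 0.41 and 0.56 on every array, and their differences between groups were never further apart than 0.086 in the 18 pair comparisons.

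Levels are given as log2 of the total signal, scaled to a common 75th percentile over the 132 miRNAs detected on every array. Before therapy the NOCIA arrays gave 9.01 and 8.98. The CIA arrays gave 9.43 and 9.25. Both CIA arrays were thus above both NOCIA arrays before therapy. At 1 hour NOCIA gave 9.20 and 9.36. In MS at 1 hour the values were 8.81 and 9.08. These MS arrays held the lowest single value of all 24, on the array with the second largest total intensity before scaling. MTX at 1 hour gave 9.32 and 9.19. ANE at 1 hour gave 9.02 and 9.29. PLA at 1 hour gave 9.17 and 8.98. The lowest values of all were 8.81 in MS and 8.98 in PLA at 1 hour, with the NOCIA arrays before therapy next. The SD of each 1 hour group, from 2 arrays, was larger than that of any 34-day group. In the authors' processed table this did not hold, with 0.015 for MTX at 1 hour and 0.109 for MTX at 34 days. At 34 days NOCIA gave 9.24 and 9.20. MS gave 9.28 and 9.26. The MS arrays at 34 days agreed closely after scaling although their unscaled log2 values were 10.42 and 9.79. MTX at 34 days gave 9.20 and 9.14. ANE at 34 days gave 9.30 and 9.44. PLA at 34 days gave 9.28 and 9.35. The arrays at 34 days thus lay between 9.14 and 9.44, above both NOCIA arrays before therapy.

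**Figure D1:**
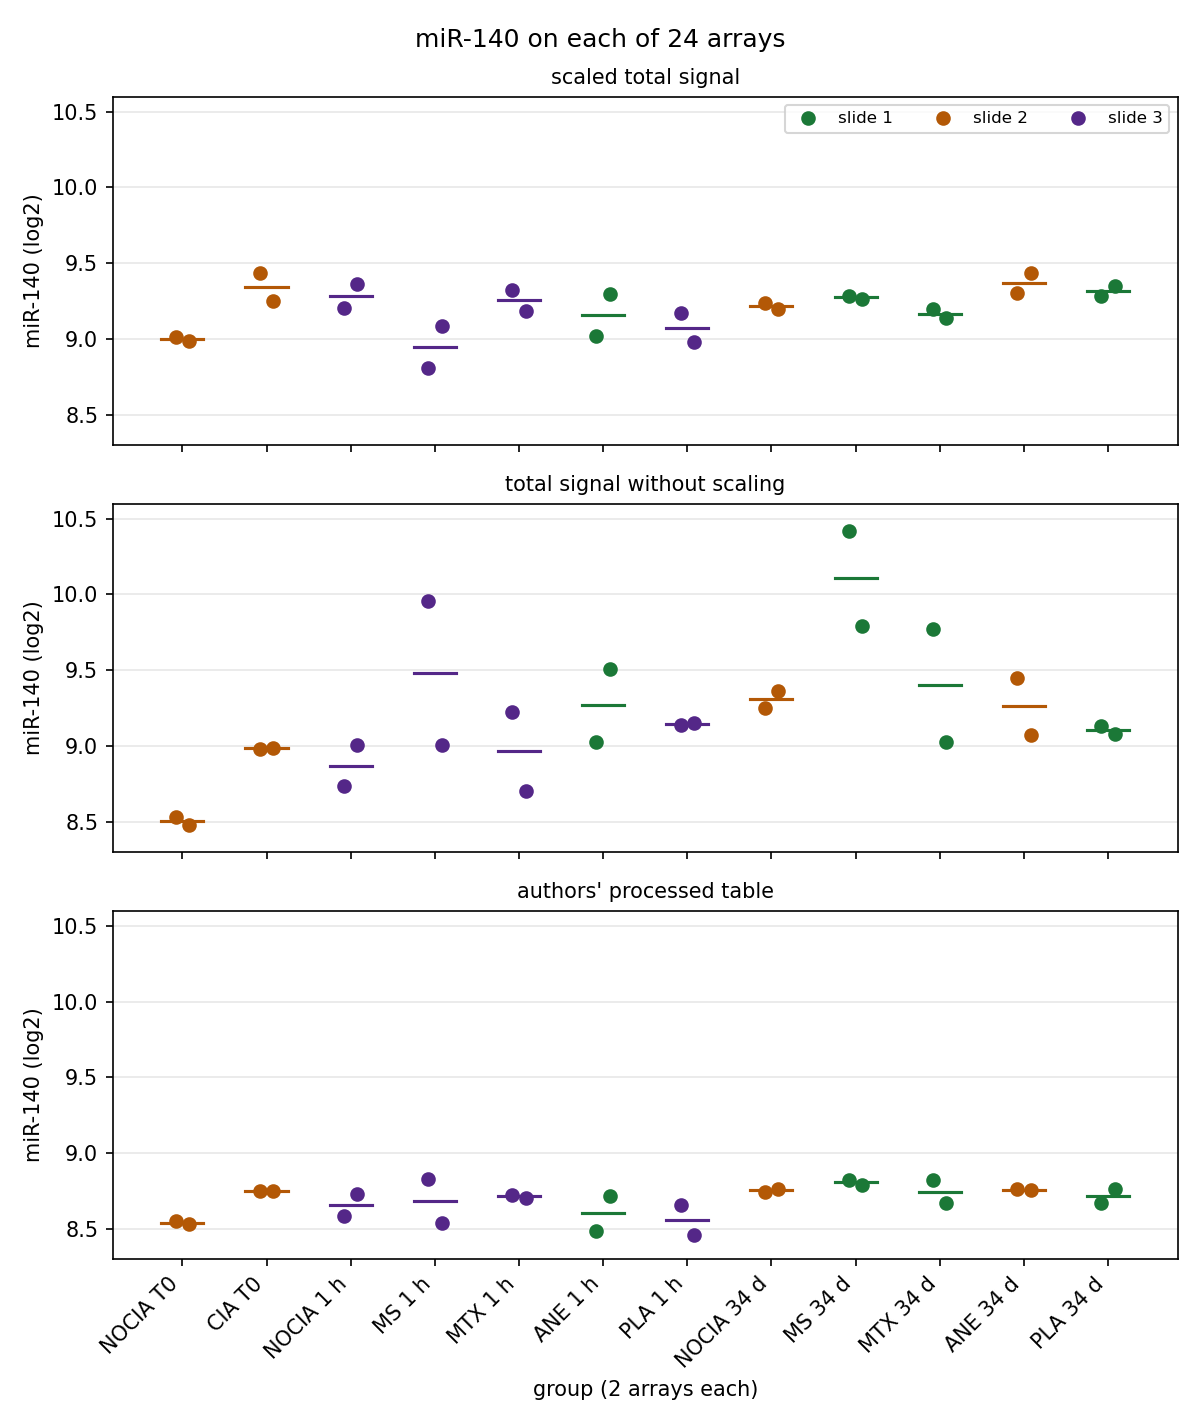
miR-140 on each array (points; line, mean of 2) by group, as scaled total signal, as total signal without scaling and in the authors' processed table, all in log2 units and coloured by slide. Scaled values span 0.63 log2 units, unscaled values 1.94 and the authors' values 0.37.

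Ordered by mean, ANE at 34 days was highest (9.37 ± 0.093; SD, n = 2), followed by CIA before therapy (9.34 ± 0.13), PLA at 34 days (9.31 ± 0.045), NOCIA at 1 hour (9.28 ± 0.12), MS at 34 days (9.27 ± 0.016) and MTX at 1 hour (9.25 ± 0.094). Below them came NOCIA at 34 days (9.22 ± 0.028), MTX at 34 days (9.17 ± 0.044), ANE at 1 hour (9.16 ± 0.19), PLA at 1 hour (9.07 ± 0.13), NOCIA before therapy (8.998 ± 0.019) and MS at 1 hour (8.95 ± 0.19). Neighbours in this order overlapped in their arrays except NOCIA and MTX at 34 days, which were 0.05 apart, less than the SE of a difference (0.14), so that no neighbours differed beyond their spread. NOCIA at 1 hour, at 34 days and before therapy stood at places 4, 7 and 11 of this order, so that healthy and arthritic groups were interleaved. A test of any difference among the 12 groups (limma's moderated F, 1.98) had an adjusted p of 0.392, while 5 of the 210 miRNAs tested (2.38%) passed it.

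miR-140 was among the least variable miRNAs of these cells. Its SD over the 24 arrays was 0.155, the 8th lowest of 132, against a median of 0.307. Its range of 0.63, a 1.54-fold span, was the 5th lowest, against a median range of 1.33. The partner arm miR-140* had the lowest SD (0.101) and the lowest range (0.49) of the 132. This low spread is a property of the scaled values: without scaling miR-140 had an SD of 0.449, the 36th lowest, and a range of 3.84-fold, and in the authors' table its SD of 0.109 was the 5th lowest.

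**Figure D2:**
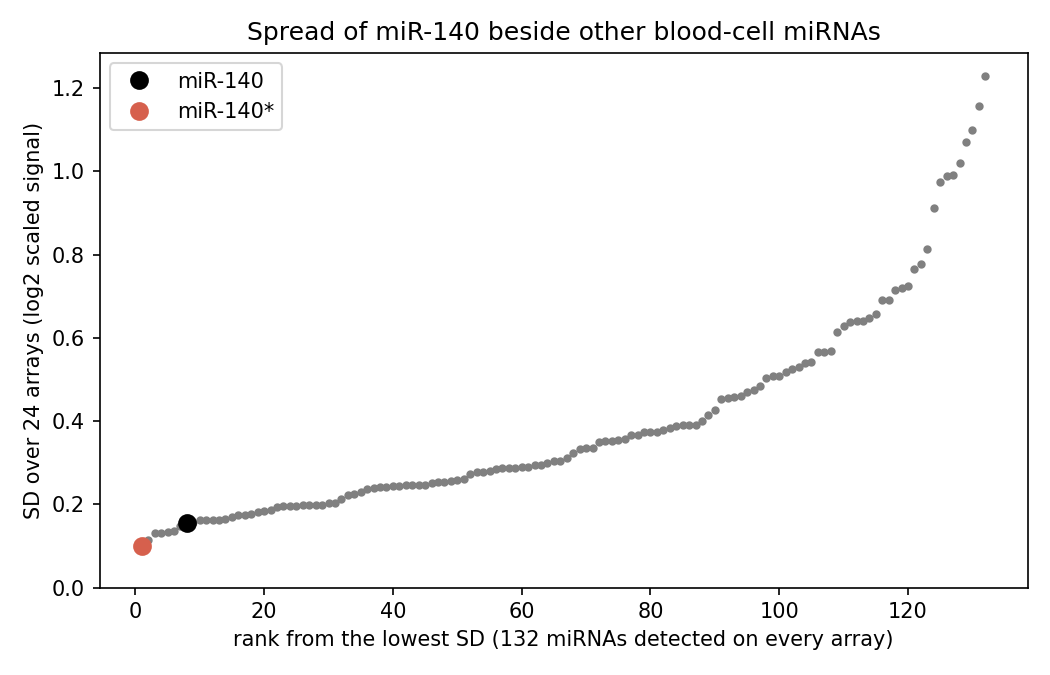
SD over 24 arrays (log2 scaled signal) of each of the 132 miRNAs detected on every array, against its rank from the lowest. miR-140 (0.155) is 8th and miR-140* (0.101) is 1st, well below the median of 0.307.

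The first question was whether miR-140 differs in PBMCs once arthritis is established. Before therapy it was higher in CIA than in NOCIA by 0.35 (SE 0.14; 95% interval 0.05 to 0.64), a 1.27-fold difference. The arrays of the groups did not overlap, which was so in this direction for 27.6% of all miRNAs tested. The adjusted p was 0.385 (limma, Benjamini-Hochberg over 210 miRNAs; unadjusted 0.0238), while 0.952% of miRNAs passed the adjusted threshold and 7.62% the unadjusted one, so that miR-140 is not called. The difference was above 0 in 8 of 8 ways of processing the arrays, from 0.18 to 0.56, and both probes showed it, with 0.34 and 0.35. These readings all come from the same arrays and are not independent of each other. The NOCIA arrays before therapy had the lowest summed intensity of all arrays (137544 and 138064), against 167322 and 163860 in CIA. They also had the fewest detected miRNAs (148 and 145), against 157 and 170 in CIA. The part of this low intensity in the miR-140 difference was not tested. Both groups lay on 1 slide.

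Among the blood-cell markers only those of lymphocytes were also higher without overlap, as were 27.6% of all miRNAs. All 3 lymphocyte markers on the array (miR-150, miR-342-3p and miR-181a) were higher on both CIA arrays than on both NOCIA arrays before therapy, with a summed log2 level of 13.75 to 13.87 against 13.26 to 13.30. The myeloid marker miR-223 overlapped (12.26 to 12.60 against 12.59 to 12.83), as did both pan-leukocyte and both erythroid markers measured. miR-126, of platelets and endothelium, was lower in CIA (5.89 to 6.07 against 6.47 to 6.56), where 31.0% of all miRNAs lay lower without overlap. The liver miRNA miR-122 read 7.73 and 7.76 on the NOCIA arrays and was not detected on the CIA arrays, and all 3 muscle miRNAs were detected on no array. The part of these markers in the miR-140 difference was not tested, and in such mixed cells a change in the share of a cell type and a change of RNA per cell cannot be told apart.

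At later times the CIA arms without an active therapy were set against NOCIA. PLA animals had a saline injection that the untreated NOCIA animals had not. ANE animals had isoflurane, and the anaesthetic of NOCIA was not named. Arthritis thus cannot be told apart from the injection in PLA, nor from a possible difference in anaesthetic. At 34 days ANE was above NOCIA by 0.15 (interval -0.14 to 0.44; adjusted p = 1 by limma), with arrays that did not overlap, as for 20.0% of all miRNAs in this direction. At 1 hour PLA was below NOCIA by 0.21 (log2 difference -0.21, interval -0.50 to 0.08; adjusted p = 0.990 by limma), again without overlap, as for 7.62% of all miRNAs in this direction. Without scaling both of these signs turned, to -0.04 and 0.27. Over 8 ways of processing, ANE minus NOCIA was above 0 in 5 and below 0 in 3 (-0.17 to 0.17). PLA minus NOCIA was below 0 in 7 of 8 (-0.54 to 0.27).

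Averaged over groups, the 9 CIA groups and the 3 NOCIA groups differed by 0.04 (SE 0.064; interval -0.09 to 0.18; adjusted p = 0.991 by limma), a contrast in which 0.476% of all miRNAs passed. The 18 CIA arrays ran from 8.81 through a median of 9.26 to 9.44, and the 6 NOCIA arrays from 8.98 through 9.20 to 9.36, so that the healthy range lay inside the arthritic one. Slides differed in sign. On slide 2, with 4 CIA and 4 NOCIA arrays at T0 and 34 days, CIA was higher by 0.25 (two-sided exact permutation p = 0.0286, the smallest that slide allows; 0.0571 adjusted over both slides). On slide 3, with 6 CIA and 2 NOCIA arrays at 1 hour, the difference was -0.19 (exact p = 0.179). Permuted within both slides together, the mean difference was 0.03 (exact p = 0.777 over 1960 arrangements). Labels were permuted across T0 and 34 days on slide 2 and across MS, MTX and PLA on slide 3, as if such arrays were replicates. NOCIA itself was 0.22 higher at 34 days than at T0, so that time was not held fixed in the p of slide 2. Slide 1 held CIA groups alone. In the authors' table the 4 CIA and 4 NOCIA arrays of slide 2 overlapped, with NOCIA at 34 days at 8.74 and 8.76 and CIA before therapy at 8.75 on both arrays.

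The next question was whether miR-140 differs after each therapy. At 1 hour miR-140 was lower in MS than in CIA before therapy by 0.40 (log2 difference -0.40, interval -0.69 to -0.11), a ratio of 0.759. The arrays did not overlap, as for 19.5% of all miRNAs in this direction. The adjusted p was 0.238 by limma (unadjusted 0.0113), and 0% of the 210 miRNAs passed in this comparison, with 27 (12.9%) at an unadjusted p under 0.05. The groups lay on different slides, so that slide and group cannot be told apart, and without scaling the difference was 0.50. Replicate 1 of MS at 1 hour had the second largest summed intensity of the 24 arrays. Leaving it out gave -0.26, and leaving out replicate 2 gave -0.54. Each of these rests on a lone MS array, which has no spread of its own. Along with miR-140, 2 of the 3 lymphocyte markers were lower on both MS arrays, with a summed level of 11.04 to 13.66 against 13.75 to 13.87, and miR-126 was higher, as were 13.3% of all miRNAs without overlap. Their part in the difference was not tested.

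Against the saline control of the same slide, MS at 1 hour differed by -0.13 (interval -0.42 to 0.17; adjusted p = 0.824 by limma), a sign seen in 2 of 8 ways of processing and opposite in 6, up to 0.70. MTX differed from the same control by 0.18 (interval -0.11 to 0.47; adjusted p = 0.884 by limma). The MTX arrays lay above the PLA arrays, as for 14.8% of all miRNAs, and the MS arrays overlapped with them. PLA at 1 hour was itself below CIA before therapy (-0.27, interval -0.56 to 0.02; adjusted p = 0.567 by limma), without overlap, as for 12.4% of all miRNAs in this direction. The MTX and ANE arrays at 1 hour overlapped with those of CIA before therapy (-0.09 and -0.19), comparisons in which 1.43% and 0.476% of all miRNAs were called. PLA, MTX and ANE at 1 hour lay on other slides than CIA before therapy, so that slide and group cannot be told apart.

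At 34 days miR-140 differed from CIA before therapy by -0.07 in MS (interval -0.36 to 0.22) and by -0.18 in MTX (-0.47 to 0.12). The difference was -0.03 in PLA (-0.32 to 0.26) and 0.03 in ANE (-0.27 to 0.32). MS, MTX and PLA at 34 days lay on another slide than CIA before therapy, so that slide and group cannot be told apart. ANE lay on the same slide. Only in MTX did the arrays not overlap with those of CIA before therapy, as for 16.7% of all miRNAs in this direction. On those MTX arrays all 3 lymphocyte markers were lower than in CIA before therapy, with a summed level of 12.86 to 13.42 against 13.75 to 13.87. miR-223 was higher (12.71 to 13.32 against 12.26 to 12.60), as was miR-126 (6.36 to 7.10 against 5.89 to 6.07), where 16.2% of all miRNAs lay higher without overlap. Such marker shifts were also seen in arms whose miR-140 arrays overlapped with CIA before therapy. In ANE at 1 hour all 3 lymphocyte markers were lower, and miR-223 and miR-126 were higher, without overlap. In PLA at 34 days 2 of the 3 lymphocyte markers were lower and miR-223 was higher. In ANE at 34 days 1 lymphocyte marker was lower, and in MTX at 1 hour 0 were. The share of all miRNAs was not counted for these pairs. The part of these markers in the MTX difference was not tested. For MS at 34 days against CIA before therapy, 40 of 210 miRNAs (19.0%) were called with this scaling, and miR-140 was not among them (adjusted p = 0.717 by limma). That count ran from 0 to 132 under other settings and from 0 to 103 with 1 array left out. Without scaling, MS at 34 days was higher by 1.12 (adjusted p = 0.0124 by limma) than CIA before therapy and by 1.00 (adjusted p = 0.0249 by limma) than PLA at 34 days. Summed intensity was 519917 and 305171 on those MS arrays, 167322 and 163860 in CIA before therapy, and 191876 and 181337 in PLA. Unscaled values of the other 131 miRNAs detected on every array had a median Pearson r of 0.89 with miR-140, against 0.16 after scaling. These unscaled differences are thus not particular to miR-140. Between arms of the same slide, MS differed from PLA by -0.04, MTX from PLA by -0.15 and MS from MTX by 0.11, each with an interval that spans 0. The arrays of the last 2 of these pairs did not overlap, as for 17.6% and 23.8% of all miRNAs in those directions. The change in MS from T0 to 34 days less that in NOCIA was -0.29 (SE 0.19; adjusted p = 0.472 by limma), with 0.476% of all miRNAs called.

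The healthy groups also differed among themselves. NOCIA at 1 hour was above NOCIA before therapy by 0.29 (interval -0.01 to 0.58; adjusted p = 0.548 by limma), across slides, and NOCIA at 34 days by 0.22 (interval -0.07 to 0.51; adjusted p = 0.790 by limma), on 1 slide. Neither pair of groups overlapped, as for 36.2% and 47.1% of all miRNAs in this direction. miR-140 passed the adjusted threshold in 0 of 18 pair comparisons, with intervals that excluded 0 without adjustment in 2 of them.

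**Figure D3:**
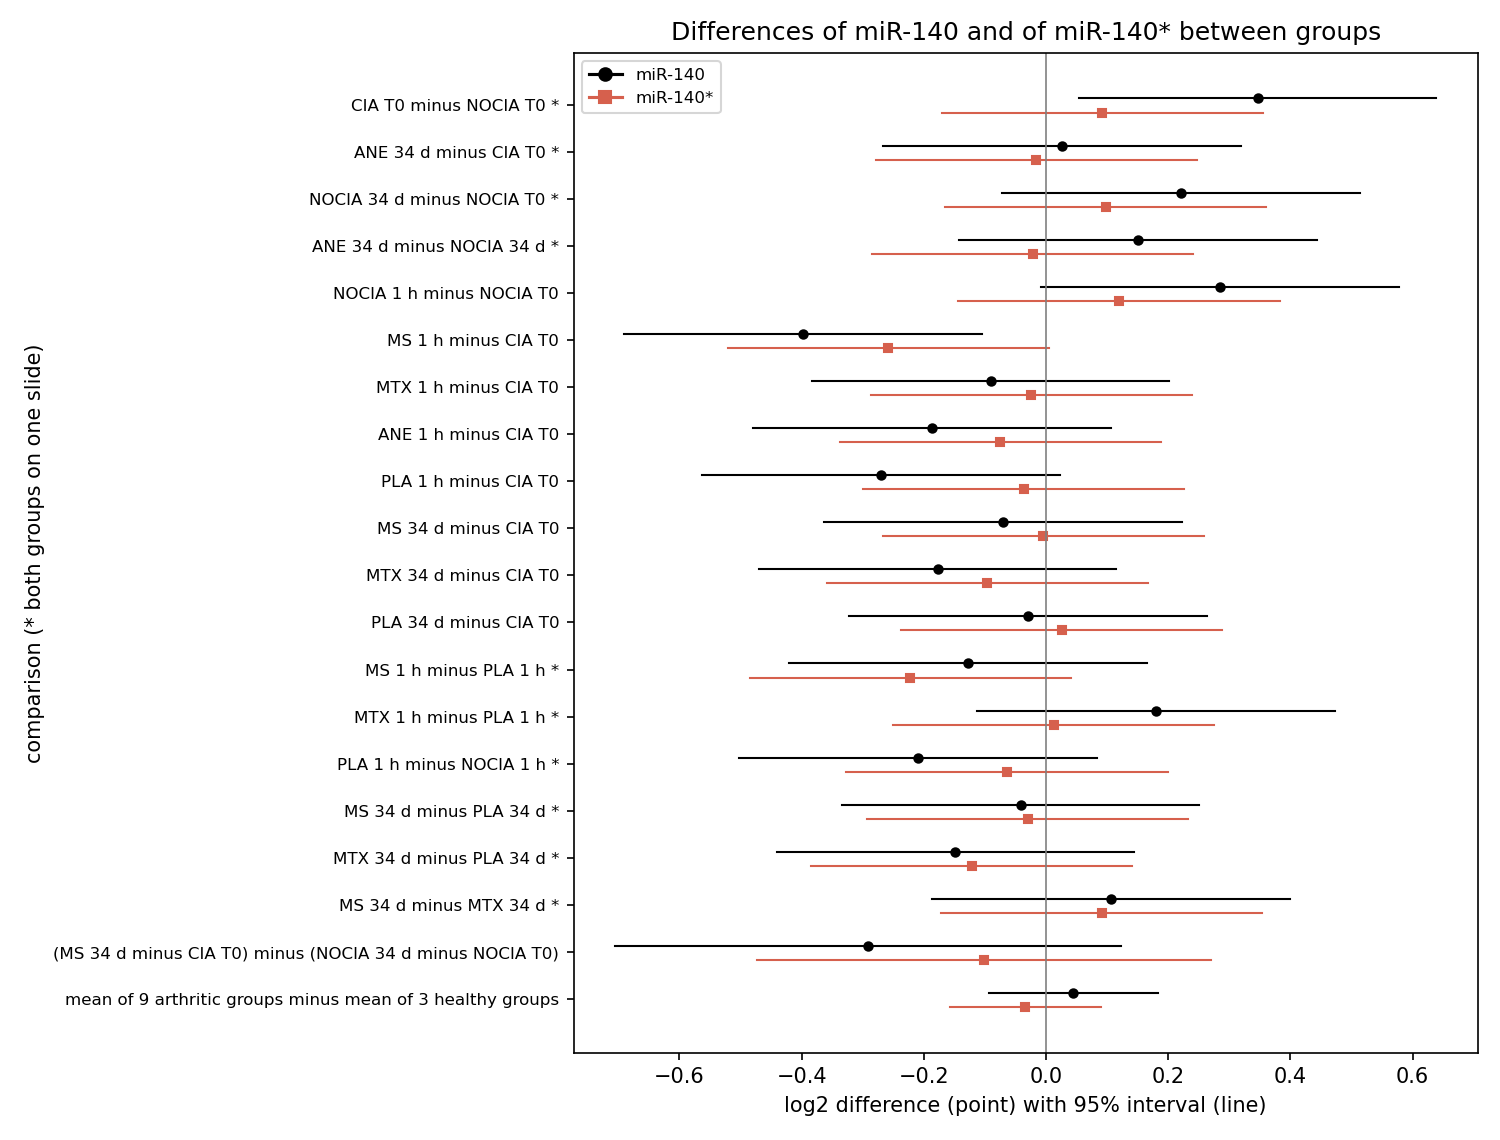
Log2 differences with 95% intervals of miR-140 (black circles) and miR-140* (red squares) for 18 pair comparisons, the interaction and the pooled contrast. CIA against NOCIA before therapy (0.35) and MS at 1 hour against CIA before therapy (-0.40) are the pairs whose miR-140 interval leaves out 0.

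The 2 arms come from 1 hairpin and are read by separate probes, so that miR-140* offers a second reading of the locus. Both arms share each array's scale factor, and the pairs share groups, so that the values are set side by side as a description. Before therapy miR-140* gave 9.38 and 9.40 in NOCIA and 9.52 and 9.45 in CIA, a difference of 0.09 (SE 0.12; adjusted p = 0.944 by limma). The 2 probes of miR-140* differed in sign there, with -0.017 and 0.126. In MS at 1 hour miR-140* gave 9.10 and 9.35, which is -0.26 against CIA before therapy (adjusted p = 0.366 by limma). Its F-test had an adjusted p of 0.715. The largest gap between the arms' differences was -0.25 (miR-140* less miR-140), for CIA against NOCIA before therapy.

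**Figure D4:**
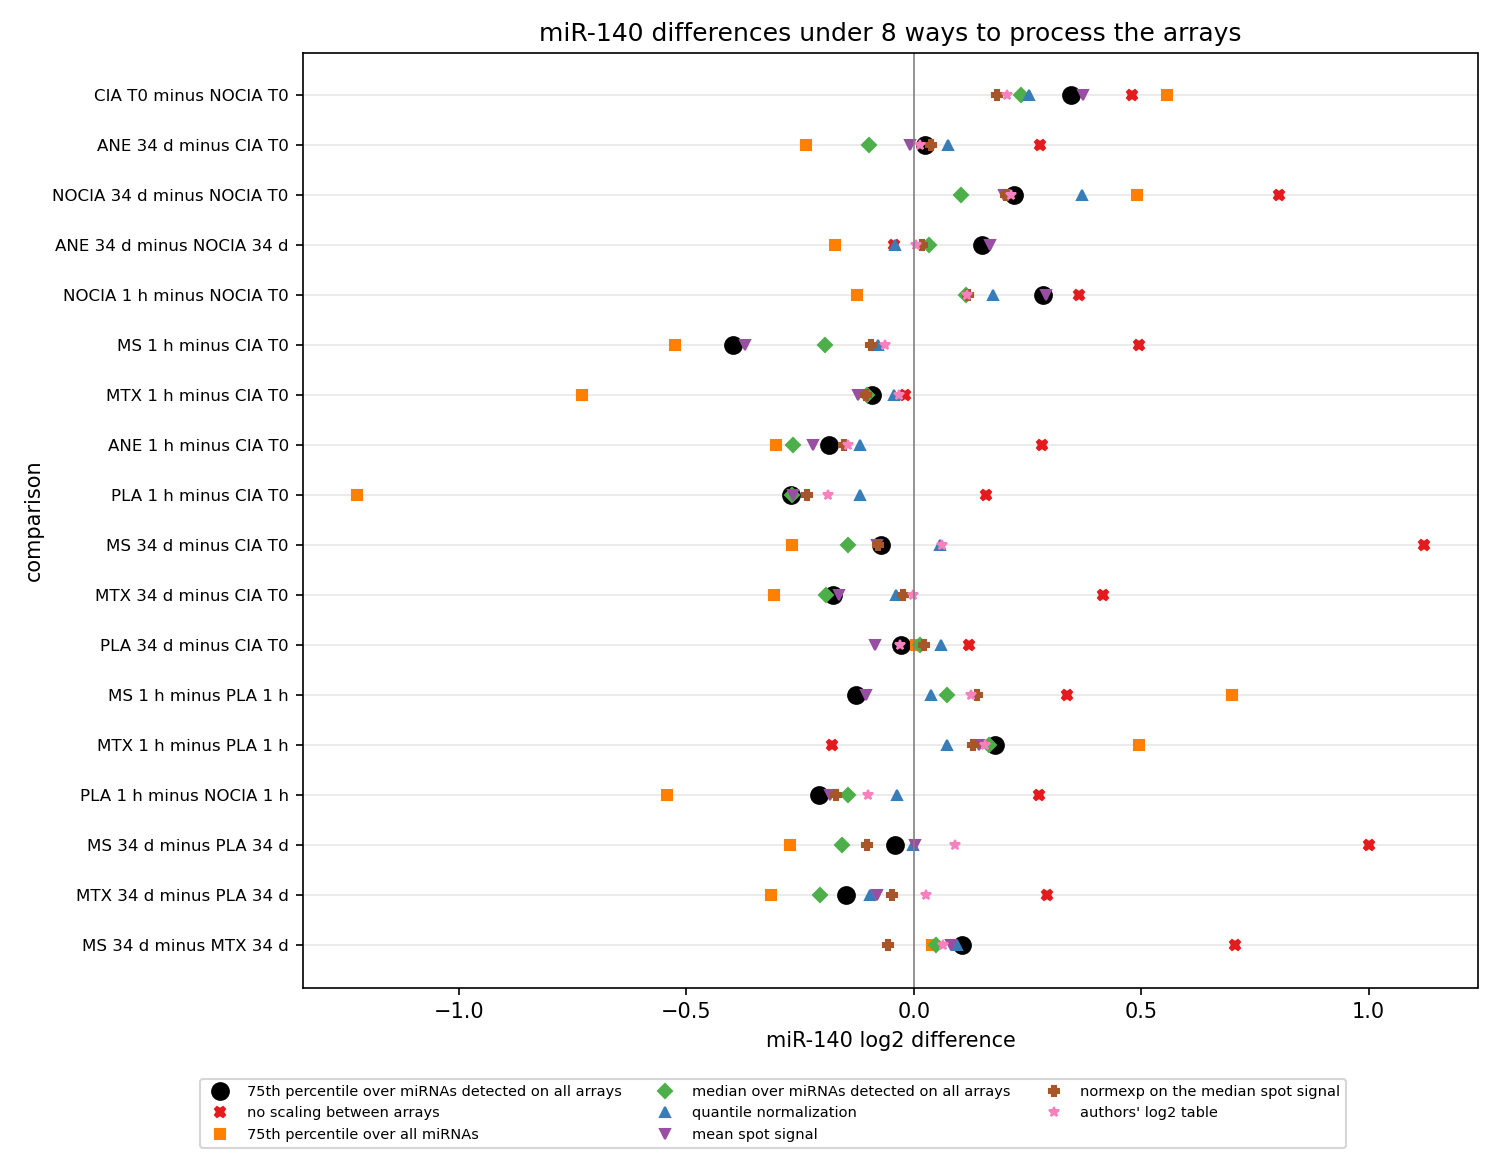
miR-140 log2 differences for 18 pair comparisons under 8 ways to process the arrays. CIA against NOCIA before therapy stays above 0 throughout (0.18 to 0.56), whereas the differences without scaling turn sign in most comparisons with treated groups.

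Over the 24 arrays, the miRNAs most like miR-140 among the other 131 detected on every array were miR-15b (Pearson r = 0.85), miR-30c (0.77), miR-106b (0.76), miR-361 (0.75) and let-7b (0.73), with miR-140* next (0.73). The least alike were miR-328a (-0.44) and miR-32 (-0.46), and the median was 0.16. These points share arrays and scale factors, and r is given as a description. Their 5p arms are shown with seeds in capitals, since none of the seeds is that of miR-140 and each belongs to a different family.
miR-15b: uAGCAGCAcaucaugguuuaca
miR-30c: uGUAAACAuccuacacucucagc
miR-106b: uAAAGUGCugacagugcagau
miR-361: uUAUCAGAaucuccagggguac
let-7b: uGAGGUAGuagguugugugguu
Of these, miR-15b stayed among the 5 most alike under each of 5 other settings, whereas in the authors' table let-7b had an r of 0.31, miR-361 of 0.30 and miR-30c of 0.26.

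Other miRNAs tied to cartilage or joints were read beside it. Of 18 such miRNAs, 12 were detected on all 24 arrays, among them miR-27a, miR-27b, miR-34a, miR-125b-5p, miR-146a and miR-23b, and 3 on none (miR-199a-5p, miR-455 and miR-675). Over the 14 that were tested, 1 call was made in the 18 pair comparisons. miR-27a was 11.41 in CIA before therapy and 12.12 in MS at 34 days (0.71, SE 0.22, adjusted p = 0.0406 by limma), where 19.0% of all miRNAs were called. Those groups lay on different slides. Against PLA at 34 days, on the slide of MS, miR-27a differed by 0.55 (adjusted p = 0.0832 by limma). NOCIA at 34 days was 0.34 above NOCIA before therapy (adjusted p = 0.790 by limma). The change in MS less that in NOCIA was 0.37 (adjusted p = 0.541 by limma). Leaving out either array of CIA before therapy, among others, removed the call between MS at 34 days and CIA before therapy. In that comparison all 3 lymphocyte markers were lower on both MS arrays (summed level 10.995 to 12.87 against 13.75 to 13.87), as were 25.2% of all miRNAs without overlap. miR-223 (13.08 to 13.57 against 12.26 to 12.60) and miR-126 (6.71 to 7.58 against 5.89 to 6.07) were higher, as were 43.3% of all miRNAs, and the part of these markers in the miR-27a difference was not tested. Before therapy none of the 14 was called between CIA and NOCIA, 1 was under 0.05 without adjustment, close to the share of all miRNAs (7.62%), and the median difference of the list was 0.05 against 0.00 over all miRNAs tested. The one under 0.05 was miR-34a (0.46, SE 0.17; adjusted p = 0.353 by limma).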

How the data were processed

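Total RNA of PBMCs was hybridised to 1-colour Agilent rat miRNA arrays. Per the file headers, Feature Extraction 10.7.3.1 produced the deposited intensity values (total signal per miRNA, with a detection call). The authors' deposited log2 table, was an alternative; the study's methods name AgiMicroRna for summarising the signals and the labels name RMA, without further settings. Summed intensity ran from 137544 to 519917 and 145 to 207 miRNAs were detected per array; the number of arrays limits the precision. Intensities were scaled to the geometric mean of the 75th percentiles over 132 miRNAs (factors 0.452 to 1.42), floored at 5.76 (2.53 in log2) and log2 transformed. The 210 miRNAs detected on 3 or more arrays were fitted with limma 3.58.1 (R 4.3.3) over 12 group means, with Benjamini-Hochberg adjustment, and the fit was tested on simulated data. Each group lay on 1 of 3 slides. miRNAs named were miR-140, miR-140*, the 5 most and 2 least alike, list members called, and markers. The member and lists were chosen with earlier results of these data known; miR-34a was named after its values were seen. Alternatives changed the scaling, background, filter, floor, arrays and threshold.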

Additional observations from a re-analysis of the deposited data

Results flagged for a closer look

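The difference between CIA and NOCIA before therapy and that between PLA and NOCIA at 1 hour had opposite signs on every array, with both CIA arrays above both NOCIA arrays before therapy and both PLA arrays below both NOCIA arrays at 1 hour. The difference of the differences in miR-140 was 0.56 (SE 0.19; unadjusted p = 0.0123 and adjusted p = 0.487 by limma), a comparison added after the data were seen. It ran from 0.20 to 1.10 under 8 ways of processing. The 2 contrasts lay on different slides. PLA animals had a saline injection, which CIA animals before therapy and NOCIA animals had not. Slide, time and injection thus cannot be told apart. Groups of 2 arrays are too small for a test of outlying arrays.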

How the results depend on the processing

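Without scaling, signs turned for ANE at 34 days minus NOCIA at 34 days (-0.044), MS (0.50), ANE (0.28) and PLA (0.16) at 1 hour and MS (1.12), MTX (0.42) and PLA (0.12) at 34 days minus CIA at T0, MS (0.34) and MTX (-0.18) minus PLA at 1 hour, PLA minus NOCIA at 1 hour (0.27), MS (1.00) and MTX (0.29) minus PLA at 34 days, and the interaction (0.32). The 75th percentile over all miRNAs turned ANE at 34 days minus CIA (-0.24) and minus NOCIA (-0.17), NOCIA at 1 hour minus T0 (-0.13), PLA at 34 days minus CIA (0.00513) and MS minus PLA at 1 hour (0.70). For ANE and PLA at 34 days minus CIA and MS minus PLA at 1 hour, the median gave -0.0974, 0.0135 and 0.0722. Quantile normalization turned ANE minus NOCIA (-0.0416), MS (0.0571) and PLA (0.0592) at 34 days minus CIA, and MS minus PLA at 1 hour (0.0375). Mean spot signals turned ANE minus CIA (-0.00771) and MS minus PLA (0.00314) at 34 days. Normexp turned PLA at 34 days minus CIA (0.0235), MS minus PLA at 1 hour (0.14) and MS minus MTX at 34 days (-0.0557). The authors' table turned MS at 34 days minus CIA (0.0618), MS minus PLA at 1 hour (0.13), and MS (0.0914) and MTX (0.0271) minus PLA at 34 days. With all 677 miRNAs tested, CIA minus NOCIA at T0 (0.35, adjusted p = 0.0128 by limma), NOCIA at 1 hour minus T0 (0.29, 0.0369), the added difference of differences (0.56, 0.00595) and the F-test (3.20, 0.0493) passed, and the first of these comparisons had 371 calls in place of 2. These passes come from a test that takes in 432 miRNAs detected on no array. The 3 muscle miRNAs among them read 2.85 to 3.05 in NOCIA and 2.53 to 2.66 in CIA at T0, where the floor is 2.53. The cause was not tested.

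The span of group means (0.42) was 1.60 without scaling, 1.23 over all miRNAs, 0.28 with the median, 0.27 with normexp and 0.27 in the authors' table, where the largest gap between arms was 0.22. Calls in the cartilage list (1) were 19 without scaling, 0 over all miRNAs, 0 with the median, 0 with quantiles, 2 with mean spots, 0 with normexp, 4 in the authors' table, 6 among miRNAs detected on all arrays and 16 with no filter. Calls for MS at 34 days minus CIA (40) ran from 0 to 132. Leaving out 1 array (a lone array assumed to vary like other groups), the list had 0 to 13 calls, the span ran from 0.37 to 0.56 and the arm gap from -0.31 to 0.28. The same step gave, minus CIA at T0, MS at 1 hour -0.54 to -0.26, MTX at 1 hour -0.18 to 0.00019, MS at 34 days -0.16 to 0.0202, ANE -0.0653 to 0.12 and PLA -0.12 to 0.062, MS minus PLA at 1 hour -0.27 to 0.00961, and the within-slide difference -0.0127 to 0.0694. With no change of sign, PLA minus NOCIA at 1 hour ran from -0.30 to -0.11, ANE minus NOCIA at 34 days from 0.0855 to 0.22, NOCIA at 1 hour minus T0 from 0.20 to 0.37, MTX minus PLA at 1 hour from 0.0841 to 0.27, MTX at 34 days minus CIA from -0.27 to -0.0865, ANE at 1 hour minus CIA from -0.32 to -0.0499, PLA at 1 hour minus CIA from -0.37 to -0.18, CIA minus NOCIA at T0 from 0.26 to 0.44, MS minus PLA at 34 days from -0.0738 to -0.00974, the pooled difference from 0.0171 to 0.0719 and the interaction from -0.38 to -0.20. Of the 5 most alike, 2 remained without scaling, 3 with slide means subtracted, 2 over group means and, added later, 3 with group means subtracted and 2 in the authors' table.

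With a replicate block, CIA minus NOCIA at T0 was 0.35 (adjusted p = 0.467 by limma), no miR-140 call changed and the list had 4 calls. Replicate numbers do not pair animals: deviations correlated from -0.77 to 0.84 (median -0.03). Slide was fitted with the pooled contrast alone, since groups are nested in slides.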
